A study of Rattus norvegicus with 9 samples.

Results

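Egr1, Egr2, Egr3, Nr4a1, Nr4a2, Nr4a3, Ier2, Ier3 and Myc are immediate early genes, and these 9 genes were taken by symbol from the cardiac RNA-seq values of 9 Sprague Dawley rats. All 9 are among the 5760 genes listed in 1 or both of the 2 deposited tables. The table of the Cal and Model groups holds 4288 genes and 7 of the members, the table of the model and sham comparison holds 2458 genes and 8 of the members, and 6 members are in both. Nr4a2 is listed in the first table only, and Ier3 and Myc in the second only. A gene is listed only where the authors' own test gave an adjusted p under 0.05, so every listed member had already been selected as differing, and a member that is not listed has no value here.

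The study asked how calycosin, an isoflavone of Astragalus root abbreviated Cal, alters the failing heart, and RNA came from heart tissue of 3 rats per group. In the Model group the left anterior descending coronary artery was ligated and the rats were given water. The Cal group had the same ligation and was given calycosin by mouth, and the rats labelled Control were sham-operated and given water. No engineered allele is named for the rats, their age is not given in the labels, and hearts were flash frozen after removal, with no time between removal and freezing given in the sources used here. The headings of the deposited columns conflict, so each library carries here the name that heads its own column. The authors' group means of the Cal and Model table stand under exchanged names, with the average of the Model-headed samples under Cal and that of the Cal-headed samples under Model. In the other table, called the Con table here, the sample columns are headed Cal and Con, and the mean of those headed Cal stands under the heading Model. If the mean columns are right, the libraries headed Cal are those of the Model group, each direction against the libraries headed Model is exchanged, and the Con table compares Model with Control. Read counts of the Cal-headed samples in one table equalled those in the other in all 986 genes that both list, and both comparisons thus rest on the same 3 libraries headed Cal.

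Values are normalized counts, which are reads per gene divided by 1 size factor per library. Reads on the listed genes were 2860826 to 3998471 per library in the Cal and Model table and 3270460 to 4659882 in the Con table, while the full depth is unknown. No cardiomyocyte marker of 10 was listed in the Cal and Model table. In the Con table the defining markers Myh6 and Ryr2 were listed, with a summed normalized count of 360760 to 362830 in the libraries headed Cal and 267190 to 338080 in those headed Con, so the labelled heart tissue was seen in both groups. In tissue of many cell types, fewer cells of a type and less RNA per cell cannot be told apart.

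Immediate early genes are transcribed within minutes of a stimulus from factors already present in the cell, such as SRF with its Elk partners and CREB, and their transcripts are short-lived. The Egr genes encode zinc finger transcription factors that bind GC-rich sites, and the Nr4a genes encode orphan nuclear receptors whose activity follows their amount. Ier2 and Ier3 are early response genes, the former encoding a nuclear regulator of transcription and the latter a regulator of cell survival. Myc encodes a basic helix-loop-helix factor that pairs with Max and drives growth genes. In the heart, Egr1 and Nr4a1 are known to respond to stretch, hypoxia and catecholamines.

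Promoters are shown for 3 members whose sequences hold sites at which SRF or CREB is known to bind. Egr1 and Nr4a2 hold such sites too, as given below, but their sequences are not printed. RefSeq promoters of the rat assembly GRCr8 matched 5 members, namely Egr1, Egr2, Nr4a1, Nr4a2 and Ier2, and no entry was matched for the other 4. The 250 bases before the annotated start of Egr2 (chr20:21054442-21054691, minus strand), Nr4a1 (chr7:134259888-134260137, plus strand) and Ier2 (chr19:40399123-40399372, plus strand) are printed 5′ to 3′ on the strand of the gene. Capitals mark CArG boxes, the cyclic AMP response element (CRE) TGACGTCA, its shorter core TGACG and the EGR site GCGGGGGCG, on either strand.
Egr2: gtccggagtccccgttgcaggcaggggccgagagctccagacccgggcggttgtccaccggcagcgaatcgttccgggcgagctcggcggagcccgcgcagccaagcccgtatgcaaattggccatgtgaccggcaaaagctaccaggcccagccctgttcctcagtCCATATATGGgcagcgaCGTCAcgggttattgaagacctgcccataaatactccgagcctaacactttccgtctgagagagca
Nr4a1: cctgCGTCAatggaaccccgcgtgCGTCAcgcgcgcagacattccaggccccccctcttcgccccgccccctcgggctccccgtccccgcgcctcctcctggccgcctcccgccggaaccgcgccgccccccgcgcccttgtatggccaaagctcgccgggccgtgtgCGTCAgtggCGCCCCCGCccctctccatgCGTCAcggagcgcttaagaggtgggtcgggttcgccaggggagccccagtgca
Ier2: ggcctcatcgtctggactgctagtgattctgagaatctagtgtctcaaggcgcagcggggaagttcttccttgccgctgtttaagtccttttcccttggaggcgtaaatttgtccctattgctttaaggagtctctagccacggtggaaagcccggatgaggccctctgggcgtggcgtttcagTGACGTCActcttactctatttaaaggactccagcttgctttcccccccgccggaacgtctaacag
Egr2 holds a CArG box 83 bases before the start and a CRE core 66 bases before it. Egr1 holds 2 CArG boxes, 105 and 83 bases before its start, and 2 CRE cores. Nr4a1 holds no CArG box, but 4 CRE cores at 246, 226, 82 and 53 bases before the start, with an EGR site at 73. In Ier2 a full CRE lies 66 bases before the start, and the 2 core matches counted there are its overlapping strands. Nr4a2 holds 1 core, 8 bases before its start. Among 33469 rat promoters of 300 bases, which add 50 bases after the start, 1.64% hold a CArG box, 1.83% a CRE, 21.2% a core and 2.73% an EGR site. The NBRE AAAGGTCA, at which the Nr4a receptors bind, and the E-box CACGTG, at which Myc binds with Max, were found in 1.43% and 6.42% of promoters and in none of the 5. An NF-kB site, held by 7.51%, was found in Nr4a1 alone of the 5. These matches are letters in a window, and binding was not measured.

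**Figure D1:**
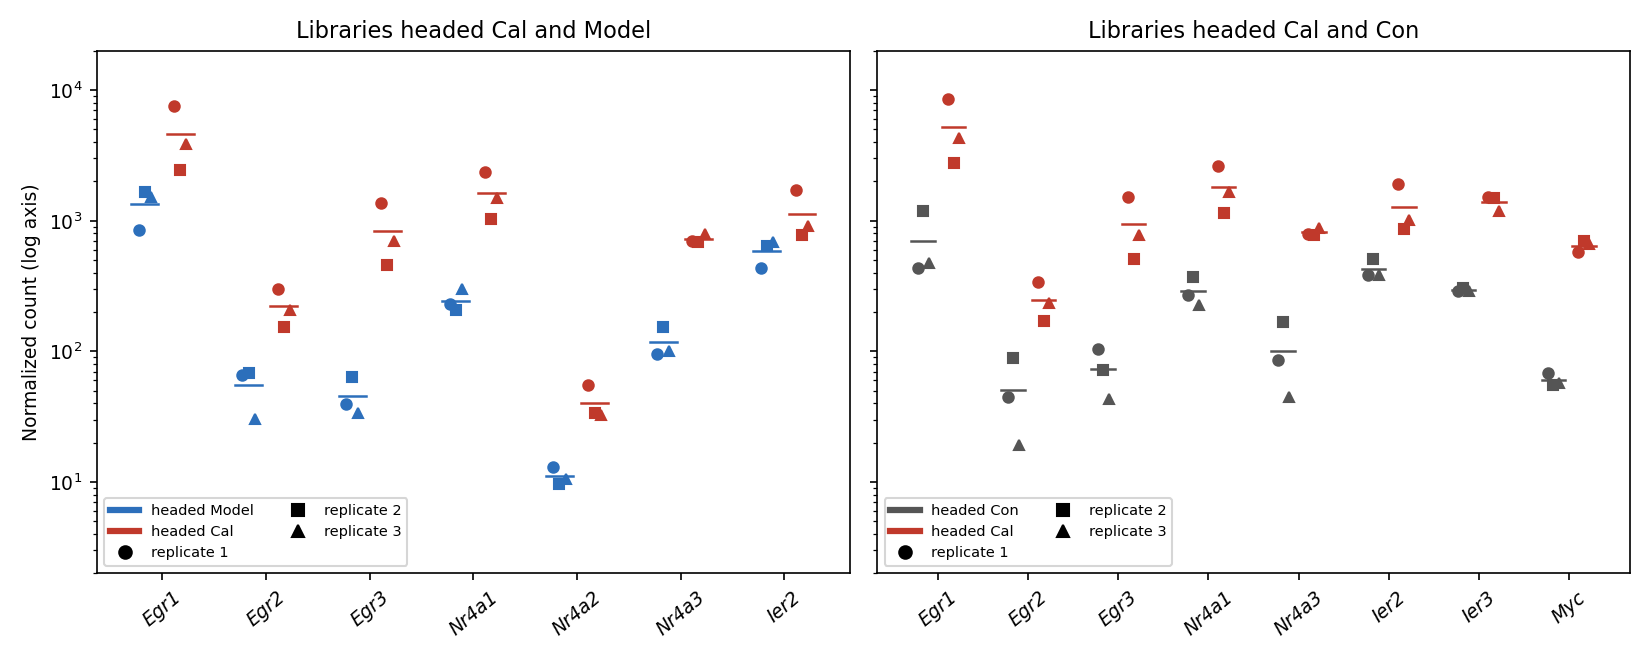
Normalized count (log axis) of each listed member in each library, with the mean of each group as a line, for the libraries headed Cal and Model on the left and Cal and Con on the right. The 3 libraries headed Cal lie above the 3 of the other group for every member listed, and Ier2 has the narrowest gap, from 693 to 774, against the libraries headed Model.

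All 7 members listed in the Cal and Model table were higher in each library headed Cal than in each library headed Model. Such a separation with the libraries headed Cal on top was seen in 45.7% of the genes in that table. A gene was called where limma, fitted over all listed genes, gave an adjusted p of less than 0.05 with a fold change over 2. The fold change limit applied in either direction, as a log2 value past 1. Listing had already selected for a low p in the same libraries, so the adjusted p given here carries little weight. Nearly all listed genes passed it, and a call rests mainly on the fold change limit. By both limits, 6 of 7 members were called higher, against 28.4% of all listed genes called higher and 60.1% called in either direction. In the Con table all 8 listed members were higher in each library headed Cal, as were 58.8% of its genes. All 8 were called higher, against 18.0% of all genes called higher and 29.0% called in either direction. The median log2 fold change over all listed genes was -0.52 in the first table and 0.37 in the second. With 3 libraries against 3, the exact two-sided permutation p of a single gene cannot go below 0.1, and it was 0.1 for each member in each table.

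Egr1, the founding member of its family, is annotated as ENSMUSG00000038418 on mouse chromosome 18 from 34859823 to 34864984 (plus strand). The identifiers and coordinates are those of the deposited tables, which use mouse genes. The submitters' processing notes name the mouse builds mm8 and mm9, and which of them, if either, the coordinates follow is not given in the sources used here. The normalized count of Egr1 was 7593, 2465 and 3873 in the libraries headed Cal 1 to 3 and 849.9, 1651 and 1515 in those headed Model 1 to 3. The groups did not overlap, and the first library headed Cal was the highest of the 3. The means were 4644 ± 2650 and 1339 ± 429 (SD, n = 3), a log2 fold change of 1.70 (SE 0.42, adjusted p = 0.00705 from limma). Against Con, Egr1 was at 8493, 2764 and 4318 in the libraries headed Cal and at 438, 1190.4 and 477 in those headed Con. The second library headed Con was higher than the others of its group and still below each library headed Cal. The means of 5192 ± 2963 and 702 ± 424 (SD, n = 3) gave a log2 fold change of 2.89 (SE 0.46, adjusted p = 0.00111 from limma).

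Egr2, a zinc finger factor known from myelination and from lymphocyte tolerance, is ENSMUSG00000037868 on mouse chromosome 10 from 67535475 to 67542188 (plus strand). The normalized count was 303, 153 and 209 in the libraries headed Cal and 65.9, 68.3 and 30.7 in those headed Model. The lowest library headed Cal was thus above the highest headed Model, and the log2 fold change was 2.02 (SE 0.38, adjusted p = 0.0024 from limma). Against Con, the values were 338, 172 and 233 in the libraries headed Cal and 44.7, 88.4 and 19.2 in those headed Con. The libraries headed Con were widely spread around their mean of 50.8 ± 35.0 (SD, n = 3). The log2 fold change over Con was 2.46 (SE 0.50, adjusted p = 0.00281 from limma).

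Egr3, which acts with Egr2 in T cells and in muscle spindles, had the highest fold of the members listed in each table. The gene is ENSMUSG00000033730 on mouse chromosome 14 from 70077203 to 70082614 (plus strand). Its normalized count was 1359, 455 and 703 in the libraries headed Cal and 39.96, 63.4 and 33.5 in those headed Model. Even the lowest library headed Cal was 7.18 times the highest headed Model. The ratio of the means, 839 ± 467 over 45.6 ± 15.7 (SD, n = 3), was 18.4, and the log2 fold change of 4.08 (SE 0.42, adjusted p = 0.000289 from limma) was exceeded by 18 of the 4288 genes. Against Con, Egr3 was at 1519.6, 510.4 and 784 in the libraries headed Cal and at 105, 72.7 and 43.5 in those headed Con. The log2 fold change there was 3.59 (SE 0.42, adjusted p = 0.000235 from limma), exceeded by 79 of the 2458 genes.

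Nr4a1, also called Nur77, is ENSMUSG00000023034 on mouse chromosome 15 from 101254269 to 101274795 (plus strand) and encodes a nuclear receptor known from T cells, macrophages and metabolism. Its normalized count was 2350.3, 1031 and 1500.5 in the libraries headed Cal and 229, 206 and 300.0 in those headed Model. The libraries headed Cal were spread more than 2-fold, from 1031 to 2350.3, and lay well clear of the others. The means were 1627 ± 669 and 245 ± 49.0 (SD, n = 3), and the log2 fold change was 2.66 (SE 0.30, adjusted p = 0.00039 from limma). The Con table gave 2629, 1156 and 1673 in the libraries headed Cal and 269, 372 and 226 in those headed Con. The log2 fold change over Con was 2.60 (SE 0.29, adjusted p = 0.000187 from limma).

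Nr4a2, or Nurr1, known for its part in dopamine neurons, was the member with the fewest reads. It is ENSMUSG00000026826 on mouse chromosome 2 from 57106830 to 57124003 (minus strand) and was listed against Model only. The recovered reads were 60, 36 and 38 in the libraries headed Cal and 12, 8 and 11 in those headed Model, or normalized counts of 55.3, 33.8 and 32.5 against 12.96, 9.76 and 10.5. Few reads stand behind each of these values, although the groups did not overlap. The log2 fold change was 1.75 (SE 0.32, adjusted p = 0.00213 from limma), and it was 1.23 with a pseudocount of 10 in place of 1.

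Nr4a3, or NOR1, the third receptor of the family, had the least spread among the libraries headed Cal. It is ENSMUSG00000028341 on mouse chromosome 4 from 48045153 to 48086447 (plus strand). Normalized counts were 703, 693 and 793 in the libraries headed Cal and 96.1, 155 and 101 in those headed Model. Unlike Nr4a1, its first library headed Cal was not the highest. The means were 729 ± 54.9 and 117 ± 32.7 (SD, n = 3), with a log2 fold change of 2.66 (SE 0.21, adjusted p = 0.000167 from limma). Against Con, Nr4a3 was at 786, 777 and 884 in the libraries headed Cal and at 86.7, 169 and 44.5 in those headed Con. The log2 fold change over Con was 3.21 (SE 0.40, adjusted p = 0.000312 from limma).

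Ier2, ENSMUSG00000053560 on mouse chromosome 8 from 84661331 to 84662852 (minus strand), was the 1 listed member that was not called against Model. Its normalized count was 1717, 774 and 917 in the libraries headed Cal and 432, 637 and 693 in those headed Model. The gap between the groups was narrow, because the second library headed Cal was near the third headed Model. The log2 fold change of 0.89 (SE 0.32, adjusted p = 0.0258 from limma) was under the limit of 1. It passed that limit in 5 of 14 alternatives, at 1.19 with median-ratio scaling, 1.28 with quantile normalization, 1.12 without the library headed Cal 2, 1.00 without Cal 3 and 1.03 without Model 3. Without Cal 1 it was 0.55, with an adjusted p of 0.0676 from limma, and without Model 1 it was 0.68, with an adjusted p of 0.0934 from limma. Over all 14 alternatives the adjusted p ran from 0.00602 to 0.0934. Against Con, where Ier2 was at 1919.9, 868 and 1023 in the libraries headed Cal and at 384, 508 and 386 in those headed Con, it was called with a log2 fold change of 1.499 (SE 0.27, adjusted p = 0.00189 from limma).

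Ier3, also called IEX-1, which modulates cell death and NF-kB signalling, and Myc were listed against Con only. Ier3 is ENSMUSG00000003541 on mouse chromosome 17 from 35821684 to 35822923 (plus strand). It was at normalized counts of 1513, 1499 and 1186 in the libraries headed Cal and 288, 304 and 290.5 in those headed Con. Both groups were tight, and the log2 fold change was 2.24 (SE 0.12, adjusted p = 2.75e-06 from limma). Myc is ENSMUSG00000022346 on mouse chromosome 15 from 61985391 to 61990374 (plus strand), with 575, 695 and 659.9 in the libraries headed Cal and 68.0, 55.0 and 57.7 in those headed Con. The means of 643 ± 61.7 and 60.2 ± 6.87 (SD, n = 3) stood in a ratio of 10.7. Its log2 fold change was 3.40 (SE 0.15, adjusted p = 1.01e-06 from limma), exceeded by 95 of the 2458 genes.

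**Figure D2:**
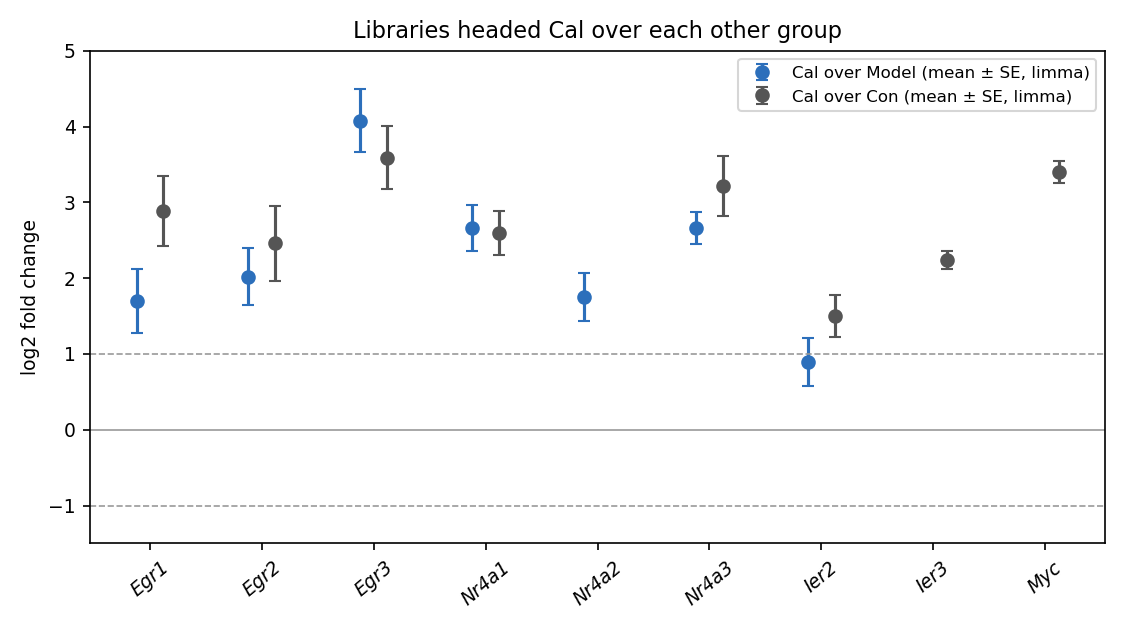
Log2 fold change, Cal-headed over Model-headed or Con-headed libraries, for each member listed in that table, as limma estimates with bars of 1 SE, and dashed lines at 1 and -1. Egr3 has the highest value in each comparison, 4.08 and 3.59, and Ier2 over Model, at 0.89, is the 1 value within the dashed lines.

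The comparisons share the libraries headed Cal, so their fold changes are given side by side without a test between them. Egr1 stood at 1.70 over Model and 2.89 over Con, Nr4a3 at 2.66 and 3.21, Egr2 at 2.02 and 2.46, and Ier2 at 0.89 and 1.499. For Egr3 the order was the other way, at 4.08 over Model and 3.59 over Con, and Nr4a1 was at 2.66 and 2.60. Each member kept a positive log2 fold change under every alternative tried.

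Levels of different genes were compared per kilobase of the deposited gene length. These lengths are of mouse genes, whereas the samples are from rats. How rat reads were assigned to mouse genes is not given in the sources used here, so these orders are approximate. In the libraries headed Cal of the Con table, the mean normalized count per kilobase was 1237 for Ier3, 1158 for Egr1, 835 for Ier2, 518 for Nr4a1, 237 for Myc, 213 for Egr3, 136 for Nr4a3 and 72.9 for Egr2. In those headed Con it was 279.8 for Ier2, 260.2 for Ier3, 156 for Egr1, 82.4 for Nr4a1, 22.2 for Myc, 16.8 for Egr3, 16.7 for Nr4a3 and 14.9 for Egr2. Ier3 and Egr1 therefore led in the first group and Ier2 and Ier3 in the second, and Egr3, Nr4a3 and Egr2 lay close together in the libraries headed Con. In the libraries headed Model of the other table, Ier2 was again the highest at 386 per kilobase and Nr4a2 the lowest at 2.73. Neighbours in these orders were not tested against each other.

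To set the 3 groups on 1 scale, the values headed Con were multiplied by the mean ratio of the size factors of the shared libraries, 0.894, which was 0.892 to 0.897 for single libraries. On that scale Egr1 was at 628 ± 379 for Con, 1339 ± 429 for Model and 4644 ± 2650 for Cal by the sample headings (SD, n = 3). The ratio of Model over Con was 2.13 for Egr1, 1.54 for Ier2, 1.31 for Nr4a3, 1.21 for Egr2, 0.948 for Nr4a1 and 0.691 for Egr3. For each of these 6 members the libraries headed Model and Con overlapped, and no test was made across the separately normalized tables. The libraries headed Cal were above both other groups for all 6. Within single tables, the libraries headed Cal were on top in 45.7% of genes against Model and 58.8% against Con. The shares of genes in both tables with either pattern were not counted. Listing in both tables also selected genes in which the same libraries headed Cal differed from each other group. Neither pattern is therefore read as particular to the members.

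**Figure D3:**
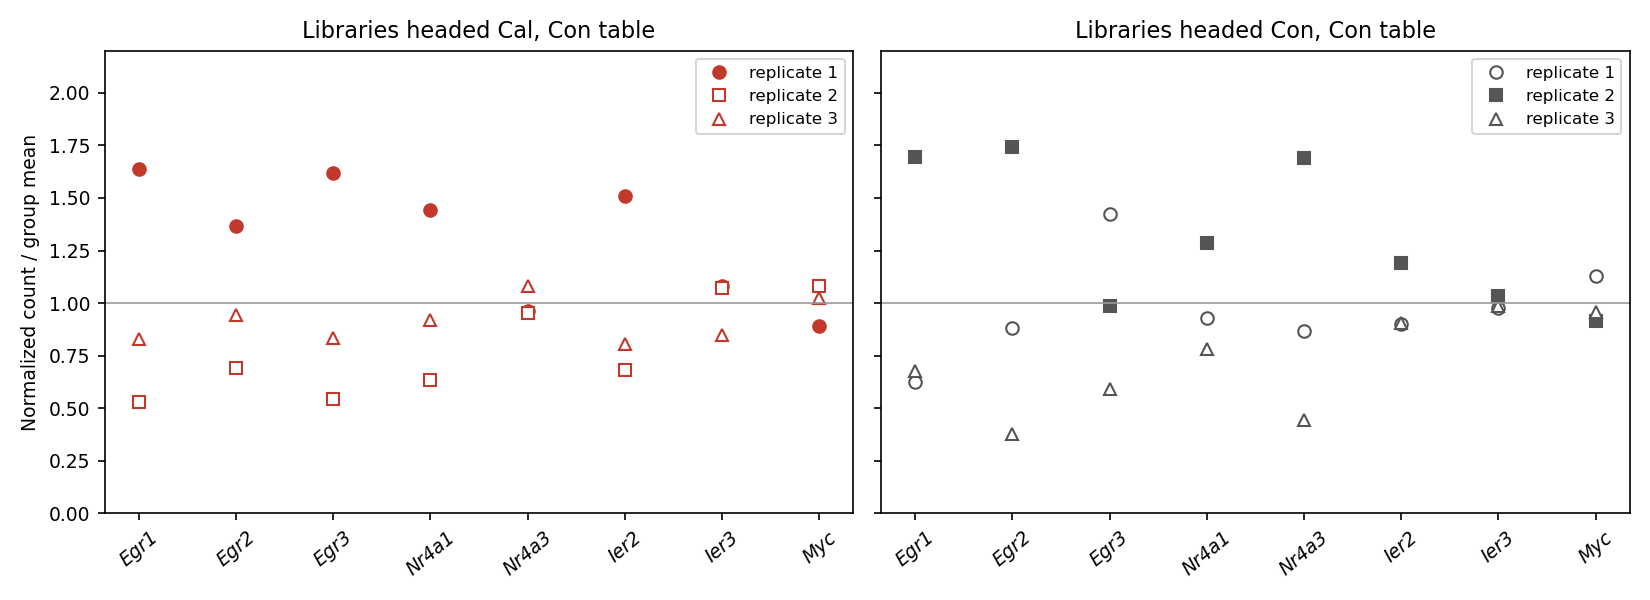
Each library's normalized count divided by the mean of its group in the Con table, for the libraries headed Cal on the left, with replicate 1 filled, and those headed Con on the right, with replicate 2 filled. Replicate 1 headed Cal is the highest for Egr1, Egr2, Egr3, Nr4a1 and Ier2, and by a small margin for Ier3. Replicate 2 headed Con is the highest for Egr1, Egr2, Nr4a1, Nr4a3 and Ier2, and by a small margin for Ier3, which is close to 1 in every library headed Con.

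The members differed in how far the 3 libraries headed Cal lay apart. In the Cal and Model table the coefficient of variation over these libraries was 57.1% for Egr1, 55.7% for Egr3, 44.7% for Ier2, 41.1% for Nr4a1, 34.1% for Egr2, 31.7% for Nr4a2 and 7.53% for Nr4a3. Against Con it was 9.60% for Myc and 13.2% for Ier3. The first library headed Cal held 3.08 times the Egr1 level of the second, and 2.98 times for Egr3, 2.28 for Nr4a1, 2.22 for Ier2, 1.98 for Egr2 and 1.64 for Nr4a2. The same ratio was 1.01 for Nr4a3 and, in the Con table, 1.01 for Ier3 and 0.827 for Myc. Over 3885 genes listed against Model with a mean of at least 20, the median of this ratio was 1.01, with 0.622 and 1.72 as its 5th and 95th percentiles, and 2.99% of genes were at least 2-fold higher in the first library.

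Among the libraries headed Con, the second was the highest of the group for Egr1, Egr2, Nr4a1, Nr4a3, Ier2 and, by a small margin, Ier3. For Egr3 and Myc the first was. Over 2354 genes of the Con table with a mean of at least 20, 2.34% were at least 2-fold higher in the second than in the third library headed Con. Without the second library headed Con, the log2 fold change was 3.35 for Egr1, 2.98 for Egr2 and 3.69 for Nr4a3. Without the first library headed Cal, it was 2.46 for Egr1, 2.21 for Egr2 and 3.24 for Nr4a3 in the Con table, and each of these was still called.

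Other early response genes, a list of 65 chosen by symbol, moved in both directions. In the Cal and Model table, 31 of the 65 were listed, of which 10 were called higher in the libraries headed Cal, 5 lower and 16 were not called. Of all genes listed there, 28.4% were called higher and 31.6% lower. The median log2 fold change of the 31 was 0.74, against -0.52 over all listed genes. The split of calls moved with the scaling, to 16 higher and 3 lower with median-ratio scaling and 14 and 4 with quantile normalization. Fosb, a partner of Jun proteins in AP-1, was at 404, 179 and 288 in the libraries headed Cal and at 17.3, 14.6 and 12.5 in those headed Model, a log2 fold change of 4.14 (SE 0.33, adjusted p = 0.000158 from limma). Areg, a ligand of the EGF receptor, was at 53.5, 22.5 and 34.2 in the libraries headed Cal, while 2 of the libraries headed Model were at 0 and the third at 1.92, so no fold is given. Plk3, a stress kinase, Jund, an AP-1 subunit, and Rgs2, a brake on G protein signalling, were higher there by 2.05, 2.01 and 1.93 on the log2 scale. Id2, an inhibitor of basic helix-loop-helix factors, was lower in the libraries headed Cal, at 95.01, 109.8 and 85.4 against 273, 341 and 381, a log2 fold change of -1.76.

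Against Con, 54 of the 65 were listed, of which 35 were called higher, 4 lower and 15 not. Of all genes listed there, 18.0% were called higher and 10.9% lower. The median log2 fold change of the 54 was 1.74, against 0.37 over all listed genes. With median-ratio scaling the calls were 31 higher and 6 lower, and with quantile normalization 30 and 6. Tnfaip3, which encodes the ubiquitin editing enzyme A20, was at 5116, 5396 and 6145 in the libraries headed Cal and at 114, 167 and 60.7 in those headed Con, a log2 fold change of 5.71 (SE 0.31, adjusted p = 2.93e-06 from limma). Nfkbiz, an atypical I-kappa-B, was at 5.53, Ptgs2, the inducible cyclooxygenase, at 5.09, Dusp2, a MAP kinase phosphatase, at 5.08, Gadd45b, a stress sensor, at 4.27 and Fosb at 4.11. The 4 called lower were Klf4 at -1.997, Dusp6 at -1.86, Id1 at -1.81 and Klf2 at -1.81, where Klf2 and Klf4 encode zinc finger factors of endothelium. Klf4 was at 296, 214 and 231 in the libraries headed Cal and at 956, 1080.4 and 909.96 in those headed Con, so the groups did not overlap. Egr4, the fourth Egr gene and not a member here, was at 0 in each library headed Con and at 28.9, 2.10 and 12.4 in those headed Cal.

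**Figure D4:**
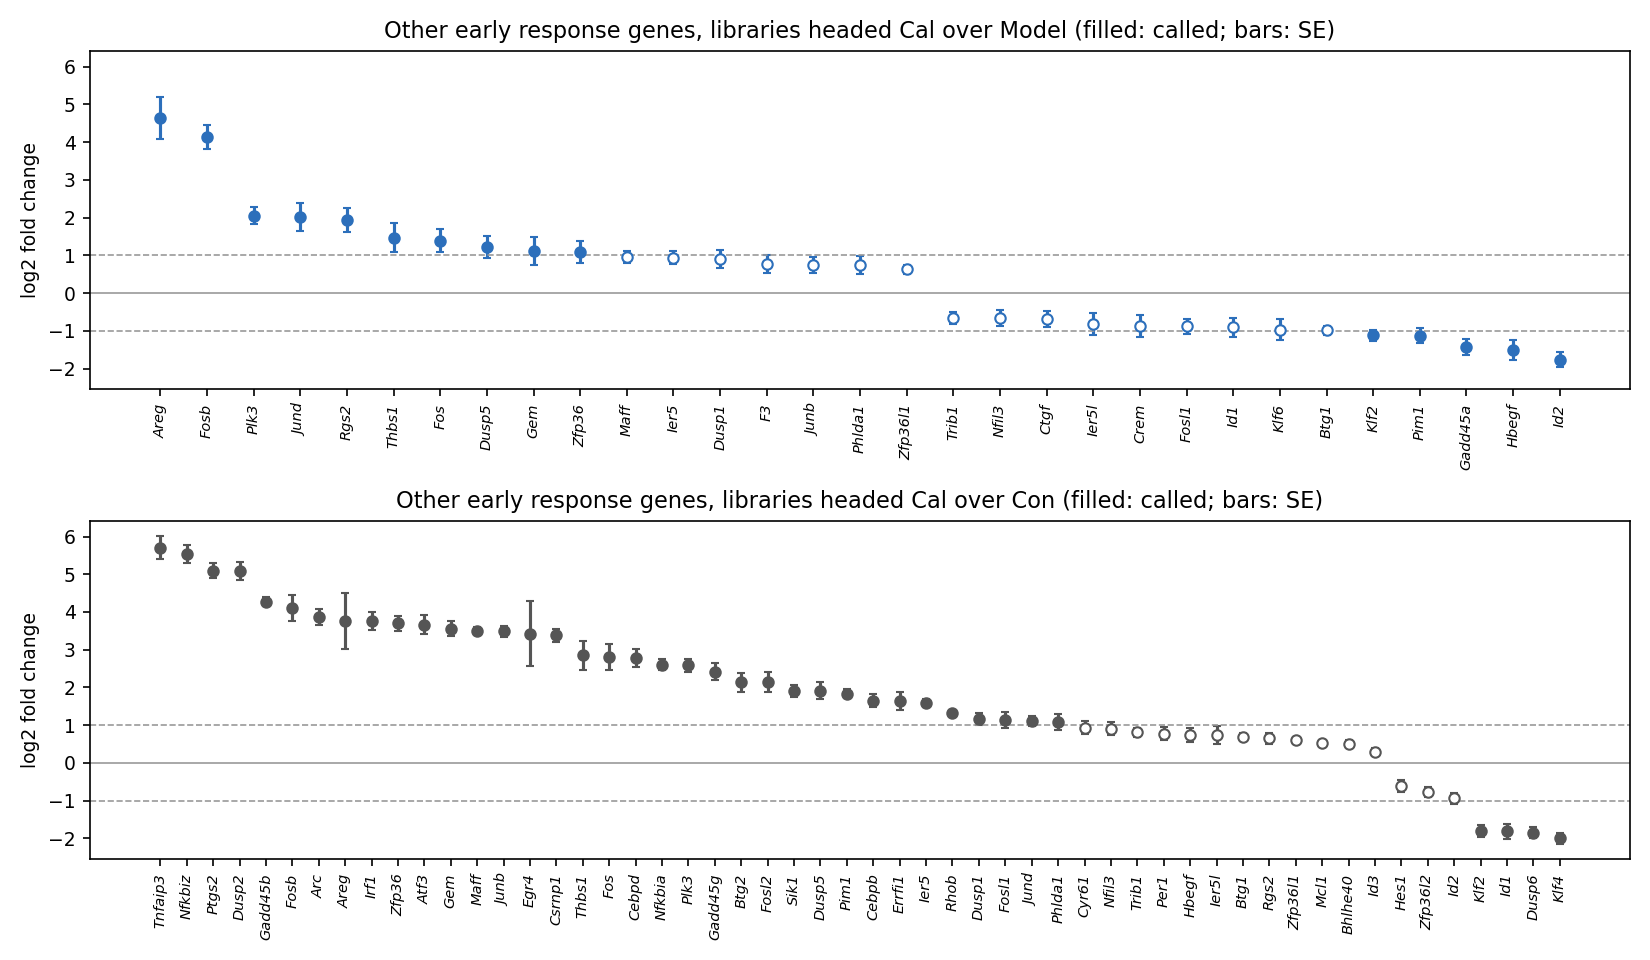
Log2 fold change with bars of 1 SE for the other early response genes listed in each table, in falling order, for the Cal-headed libraries over Model (top, 31 genes) and over Con (bottom, 54 genes), with called genes filled. Calls are 10 higher and 5 lower in the top plot and 35 higher and 4 lower in the bottom one.

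Of 34 factors that act upstream of the members, 16 were listed in the Cal and Model table, with 9 called higher, 1 lower and 6 not. Of all genes listed there, 28.4% were called higher, 31.6% lower and 60.1% in either direction. The 16 had a median log2 fold change of 1.19, against -0.52 over all listed genes, and 12 were called higher and 0 lower with median-ratio scaling. Nfatc2 and Nfatc1, factors switched on by calcineurin, were higher by log2 fold changes of 2.45 and 1.91. Rps6ka2, a ribosomal S6 kinase, Elk3, an SRF partner, Mapk3, which encodes ERK1, and Creb1, which encodes CREB, were higher by 1.59, 1.51, 1.47 and 1.38. Creb1 was at 749.9, 730.2 and 699 in the libraries headed Cal and at 387, 391 and 144 in those headed Model. The 1 called lower was Map2k1, the kinase upstream of ERK, at -1.27. Against Con, 9 of the 34 were listed and 1 was called, Elk3, at -1.12, with 492, 424 and 408 in the libraries headed Cal against 918, 1057 and 907. There 0 were called higher by limma, against 18.0% of all listed genes, and edgeR and DESeq2 also called 1 gene each in either direction. With median-ratio scaling or quantile normalization 2 were called lower. The median log2 fold change of the 9 was 0.32, against 0.37 over all listed genes. All 9 had an unadjusted limma p under 0.05, which carries no weight, because listing already selected for it. Elk3 was therefore called higher against Model and lower against Con.

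Among 23 partners and repressors, 9 were listed in the Cal and Model table, with 4 called higher, 1 lower and 4 not, and a median log2 fold change of -0.60, close to the -0.52 over all listed genes. Of all genes listed there, 28.4% were called higher and 31.6% lower. Nab2, which binds Egr proteins and represses their activity, was at 204, 183 and 198 in the libraries headed Cal and at 41.0, 61.0 and 148 in those headed Model. Its log2 fold change was 1.43 (SE 0.43, adjusted p = 0.0135 from limma). Fbxw7, part of a ubiquitin ligase that removes Myc, Mycn, a Myc paralog, and Rxra, the partner of Nr4a1 and Nr4a2 in heterodimers, were higher at 1.71, 1.70 and 1.01, and Mxd1, which competes with Myc for Max, was lower at -1.42. Against Con, 7 of the 23 were listed, with a median of 0.47 against 0.37 over all listed genes. Nab2 alone was called, where 29.0% of all listed genes were called in either direction. Nab2 was at 228, 205 and 221 in the libraries headed Cal and at 137, 75.6 and 95.1 in those headed Con, a log2 fold change of 1.12 (SE 0.22, adjusted p = 0.00238 from limma). It was not called in the Con table with median-ratio scaling or quantile normalization.

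Myc itself has no value against Model here, but known Myc targets of ribosome making and growth do. In the Cal and Model table, 22 of 35 were listed, with 8 called lower in the libraries headed Cal, 0 higher and 14 not called by limma, where 31.6% of all listed genes were called lower. All 22 had a negative log2 fold change, with a median of -0.86 against -0.52 over all listed genes, and edgeR and DESeq2 each called 8. The share of all listed genes with a negative value was not counted, so the common sign is not read as particular to these targets. Each of the 22 also had an unadjusted limma p under 0.05, which carries no weight, because listing already selected for it. Wdr43 and Tcof1, factors of ribosomal RNA synthesis, were each at -1.40, Nop2, a ribosomal RNA methyltransferase, at -1.30, Gnl3, or nucleostemin, at -1.28, Nop56, a nucleolar protein, at -1.23, and Srm, spermidine synthase, at -1.21. With median-ratio scaling 3 were called lower and with quantile normalization 6. In the Con table, where Myc was higher, 5 of the 35 were listed and 0 were called by limma, edgeR or DESeq2. Of all genes listed there, limma called 29.0%. All 5 had a positive log2 fold change, with a median of 0.52 against 0.37 over all listed genes. By the same selection, each had an unadjusted limma p under 0.05. The share of all genes listed there with a positive value was not counted.

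Known Egr1 targets of vessel wall and matrix were a list of 10. In the Cal and Model table, 8 were listed, with 4 called higher, 2 lower, 2 not called and a median log2 fold change of 1.02 against -0.52 over all listed genes. Of all genes listed there, 28.4% were called higher and 31.6% lower. Tgfb1, a profibrotic cytokine, was at 2.06, Pdgfb, a growth factor for mural cells, at 1.64, Nab2 at 1.43 and Vegfa, the endothelial growth factor, at 1.27. Timp1, an inhibitor of matrix proteases, was at -2.52, and Cd44, the hyaluronan receptor, at -1.80. In the Con table, 7 were listed, with 4 called higher, 0 lower and 3 not by limma, where 18.0% of all listed genes were called higher. All 7 had a positive log2 fold change, with a median of 1.12 against 0.37 over all listed genes, and edgeR and DESeq2 called 4 each. The share of all genes listed there with a positive value was not counted. The unadjusted limma p of all 7 was under 0.05, which listing already selected for. With median-ratio scaling or quantile normalization 2 of them were called higher. Icam1, a leukocyte adhesion receptor, was at 18106, 24992 and 24590.0 in the libraries headed Cal and at 316, 402 and 213 in those headed Con, a log2 fold change of 6.21 (SE 0.22, adjusted p = 6.1e-07 from limma). Timp1 was at 2.12, Tgfb1 at 1.23 and Nab2 at 1.12.

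Marker genes of other cell types moved with the same comparisons. Of all listed genes, 28.4% were called higher and 31.6% lower against Model, and 18.0% and 10.9% against Con. Of 6 neutrophil markers, all 6 were lower in the libraries headed Cal than in those headed Model, with a summed normalized count of 202 to 558 against 25670.0 to 29078, most of it Lcn2. Against Con 3 were listed and higher, at 194 to 579.9 against 59.6 to 88.1. Of 8 endothelial markers, 7 were listed against Model with 3 called higher, at sums of 13588 to 16488 against 6313 to 8074, and 5 were listed against Con with 1 called lower, at 12146 to 14064 against 19512 to 22159. Macrophage markers were listed for 6 of 8 against Model, with 3 called higher and 1 lower, at 6602 to 7015 against 2538 to 3778. Against Con, 2 of 8 were listed and went opposite ways. Cd14 was called higher, and Mrc1 was lower at a log2 fold change of -0.49 without being called. With median-ratio scaling and quantile normalization, 6 and 7 endothelial and 5 and 4 macrophage markers were called higher against Model. Fibroblast markers were listed for 4 of 7 against Model, with Col1a1 and Col1a2 called higher (3 under either scaling). Col3a1 was higher without being called, and Dcn was lower, at a log2 fold change of -0.68. The sums overlapped, at 17378 to 21126 in the libraries headed Cal against 15696 to 22941. Against Con, 3 of 7 fibroblast markers were listed and lower, with 1 called, at 9463 to 12300 against 14247 to 15843. Of 4 smooth muscle markers, Acta2 and Myh11 were listed in both tables, and 0 were called by limma in either. They were higher against Model, at sums of 3194 to 3440 against 2079 to 2306, and 2 were called higher there with quantile normalization. Against Con they were lower, at 3580 to 3835 against 4409 to 4844. No T cell or B cell marker of the 10 was listed in either table. The part of these cell types in the members' values was not tested.

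The genes with profiles most like each member were found by the root-mean-square difference of centred log2 profiles, over the 9 libraries for members in both tables and over 6 for the rest. Nearest to Egr1 were Apold1 (0.41), an early response gene of endothelium, Nuak2 (0.50) and Fos (0.55). Nearest to Egr3 were Fosb (0.46), Cd83 (0.74) and Hspa1a (0.85), the latter an inducible heat shock protein whose near-identical paralog Hspa1b makes its counts uncertain. Plk3, Cd83 and Hspa1a or Apold1 recurred for Nr4a1, at 0.46 for Plk3, 0.49 for Hspa1a and 0.51 for Cd83, and for Nr4a3, at 0.44 for Cd83, 0.57 for Plk3 and 0.61 for Apold1. Egr2 was nearest to Plk3 (0.54), Cd83 (0.59) and Arl5c (0.60). Ier2 was nearest to Ier5 (0.25), Dusp1 (0.31) and Klhl25 (0.35). Cd83, a surface protein of activated antigen-presenting cells, had a mean of 171 ± 54.7 for Con, 234 ± 117 for Model and 1439 ± 401 for Cal by the sample headings (SD, n = 3), all on the scale of the Cal and Model table. These distances were taken over 964 genes, whose libraries and scaling they share.

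Over 6 libraries, Nr4a2 was nearest to Ptk7 (0.11), Sybu (0.15) and Fam53b (0.17) among 3878 genes listed against Model. In the Con table, among 2346 genes, Sdc4 (0.12) and Stx11 (0.14) were among the 3 nearest to Myc, and Ier3 was nearest to Ppp1r18 (0.18), Mob3c (0.18) and Sema4c (0.19). Sdc4, a heparan sulfate proteoglycan of the cell surface, was at 359.9 ± 31.3 in the libraries headed Con and 4357.5 ± 271 in those headed Cal (SD, n = 3), beside 60.2 ± 6.87 and 643 ± 61.7 for Myc. Among the 6 members measured in all 9 libraries, Egr2 and Nr4a3 were the nearest pair, at 0.49. Over 6 libraries, the member nearest to Nr4a2 was Egr2, at 0.41, that nearest to Ier3 was Nr4a1, at 0.44, and that nearest to Myc was Nr4a3, at 0.59.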

How the data were processed

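Poly-A RNA of heart tissue was sequenced by the authors, 3 libraries per group. Per the study's methods, reads were aligned to rat reference sequences, counted per gene and tested with DESeq2. The submitters' processing notes name Bowtie 0.12.2 and the mouse builds mm8 and mm9, and the deposited identifiers are of mouse genes. These accounts conflict on the species of the reference. The counting tool is not given in the sources used here. The deposited signal of each sample column is a count divided by 1 size factor per library, computed by the authors separately for each table (0.82 to 1.17 and 0.95 to 1.07), and 100% of values came out as whole reads within a tolerance of 0.1 reads. Columns with the authors' means, fold changes, p-values and adjusted p-values are also in the tables, and only the means were used, to read the headings. Gene lengths are the deposited values in bases.

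Groups followed the sample headings. limma 3.58.1 in R 4.3.3 (trended prior variance) was fitted per table on log2(normalized count + 1), a scale that understates the change of low genes, with Benjamini-Hochberg adjustment over all listed genes. The planned model against sham fit became Cal against Con, the groups its columns name. Exact permutation tests used scipy 1.17.1. Other settings tried were a pseudocount of 0.1 or 10, genes averaging 10 or more, median-ratio scaling or quantile normalization over the listed genes, edgeR 4.0.16 and DESeq2 1.42.0 on recovered reads with the authors' size factors, a replicate block, no fold change limit and leaving out each library. Named genes were the members, up to 6 called genes per list and table with the largest change, and 3 nearest profiles per member among genes with a mean of at least 20. The genes called lower against Con in the early response list, Egr4 and the single markers were named after their values were seen. Members, lists and motifs were chosen with earlier results of these data known. A gene covered by the lists and the profile rule is not reported here. Promoters came from the RefSeq assembly GRCr8. Scripts were tested on simulated data. P-values measure the spread between the animals of these groups only. The adjusted p-values were taken over genes already selected by the authors' test and are not error rates over all genes.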

Additional observations from a re-analysis of the deposited data

How the results depend on the processing

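Over the 15 comparisons of a member within a table, 205 of 210 alternatives kept the call and 0 reversed the direction, and the 5 that changed a call were those given for Ier2 against Model; their cause was not tested. At an adjusted p alone, with no fold change limit, 4272 of 4288 and 2454 of 2458 listed genes passed in place of 2575 and 712. The limit itself removes the rest, because listing had already selected genes on p. Leaving out each library in turn gave 2344 to 2704 called genes in the Cal and Model table and 679 to 775 in the Con table, and 6 to 7 and 8 called members. Replicate numbers belong to different animals, and the deviations of libraries with the same number had correlations of 0.125, -0.133 and -0.082 in the first table and -0.037, -0.127 and -0.121 in the second, so the numbers were not read as pairs. With the number as a replicate block, 2574 and 713 genes and 6 and 8 members were called. Scaling moved the median of all log2 fold changes by 0.42 (quantile normalization) and 0.30 (median-ratio) in the Cal and Model table and by -0.42 and -0.28 in the Con table. The share of calls that were higher in the libraries headed Cal moved from 47.3% to 54.2% and 61.1%, and from 62.2% to 47.3% and 43.3%, in the same order. Both scalings take most genes as unchanged, whereas the listed genes they were run on had all been selected as differing. These moves therefore do not measure an error of the authors' size factors. Nr4a2 rests on 8 to 60 reads per library, and the selection of listed genes leaves unlisted members without a value.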
